A study of Mus musculus with 41 samples.

Results

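Of the 47480 gene symbols measured, 8 genes of red blood cells and their precursors are described: the adult alpha globins Hba-a1 and Hba-a2, the adult beta globins Hbb-bs and Hbb-bt, Alas2, Slc4a1, Klf1 and Gata1. All 8 were found by symbol. They were followed over 41 mouse mammary tumors, and 4 tumors, PLK2null-732, PLK2null-733, PLK2null-743 and PLK2null-7763, are named throughout. The genes and these 4 tumors were chosen by their values in the same libraries, where globin had already been seen to be high. Levels in the named tumors are therefore a description, no test sets them against the other tumors, and they are not averaged as a group. Over 17208 genes PLK2null-732, PLK2null-733 and PLK2null-743 were each other's nearest neighbours, with correlations of 0.978 to 0.986, and the labels do not say whether they are related.

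Hemoglobin is a tetramer of alpha and beta globin chains, each of which carries a heme. Red cells are made from bone marrow and spleen precursors in which the transcription factors Gata1 and Klf1 switch on the globin genes, the heme enzyme Alas2 and membrane proteins such as the anion exchanger Slc4a1 (band 3). As precursors mature and lose the nucleus, RNA of the regulators and of early surface proteins falls away, while reticulocytes keep globin, Alas2 and other late messages for a time. Mature red cells in blood carry a residue of that late RNA, so bulk tumor RNA can hold globin messages from blood in its vessels.

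RNA came from 28 Plk2-/-; p53-/- tumors and 13 p53-/- tumors, all in the Balb/c background and all without p53, with 1 library per tumor. For the Plk2-/-; p53-/- tumors, epithelium from the mammary gland of mice lacking both genes was transplanted into cleared mammary fat pads, and the Balb/c hosts were wild type, so that blood and vessels of a tumor can come from a host with both genes intact. The p53-/- tumors came from a bank of transplantable Balb/c tumors. The labels give neither subtype nor age, and they do not say which tumors are transplants of the same line. Every p53-/- title carries a numbered ROSEN series name and no Plk2-/-; p53-/- title does, so library series and genotype cannot be told apart.

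Values are estimated counts scaled to set each tumor's upper quartile, taken over values above 0, at 1000, and a single read was worth 0.388 to 0.817 of these units. The low values imply 29409598 to 70868089 fragments per tumor, and 3 reads were taken as the floor of detection, for counting error only. Epithelial markers were low in 3 of the named tumors. Epcam, an epithelial adhesion protein, was at 87.4, 20.97 and 9.60 in the first 3 of the named tumors and at 4250 in PLK2null-7763, against medians of 16823 in the other 24 Plk2-/-; p53-/- tumors and 17039 in the p53-/- tumors. Keratin 8 (Krt8) followed the same order, at 63.0, 16.8, 9.60 and 4837, and the luminal keratin Krt18 was at 61.6, 5.99, 6.21 and 2832. Basal keratin Krt5, at 102, 19.8, 7.91 and 6097, had a median of only 46.6 in the other Plk2-/-; p53-/- tumors. The claudins Cldn3 and Cldn7 were at 19.3, 6.59, 1.13 and 608 and at 23.6, 9.59, 4.52 and 138. Their medians in the other Plk2-/-; p53-/- tumors were 6041.5 and 3308. The paper lists CL743 as its Plk2-/-; p53-/- claudin-low tumor, a class it marks by low Cldn3 and Cldn7. The labels do not say that PLK2null-743 is CL743. How much tumor the libraries held was not tested.

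The adult globin genes are near-identical copies, which limits how far their separate values can be read. In GRCm38, the mm10 build, Hba-a1 lies on chromosome 11 from 32283511 to 32284465 and Hba-a2 from 32296489 to 32297298, both on the plus strand. Hbb-bs lies on chromosome 7 from 103826534 to 103828096 and Hbb-bt from 103812524 to 103813996, both on the minus strand. Within each pair the coding sequences of the reference transcripts differ at 1 base, of 429 coding bases for the alpha and 444 for the beta genes. The 60 coding bases around that base are printed because reads of 50 bases from most of the coding sequence cannot tell the copies apart. The substitution is C381T from Hba-a1 to Hba-a2 and C417T from Hbb-bs to Hbb-bt, counted from 1 at the A of the start codon, and capitals mark it.
Hba-a1: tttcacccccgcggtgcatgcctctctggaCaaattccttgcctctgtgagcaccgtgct
Hba-a2: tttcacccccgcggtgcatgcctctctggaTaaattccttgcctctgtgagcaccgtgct
Hbb-bs: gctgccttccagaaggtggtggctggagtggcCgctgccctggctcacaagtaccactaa
Hbb-bt: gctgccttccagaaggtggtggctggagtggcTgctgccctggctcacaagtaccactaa

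Of all 50-base windows in the longest listed transcript form, 67.5% of Hba-a1 windows also occur in Hba-a2 and 86.9% of Hba-a2 windows in Hba-a1. The shares were 65.8% of Hbb-bs windows in Hbb-bt and 58.3% of Hbb-bt windows in Hbb-bs. The reference is the C57BL/6J haplotype, and Balb/c mice carry another haplotype of the beta globin cluster, whose genes Hbb-b1 and Hbb-b2 were not among the symbols measured. Sums over the 4 globins are therefore given beside single genes.

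Upstream sequence is shown for 3 members whose levels moved together, taken from RefSeq promoters on GRCm38.p6, in which 7 of the 8 members had an entry. Capitals mark CACCC, the core of the Klf1 site, GATAA, the core of the Gata1 site, and CCAAT, on either strand. Bases that any annotated transcript of the gene includes were left out. The stretches are chr11:32296372-32296488 on the plus strand for Hba-a2, chr7:103813997-103814043 on the minus strand for Hbb-bt and chrX:150547297-150547374 on the plus strand for Alas2.
Hba-a2: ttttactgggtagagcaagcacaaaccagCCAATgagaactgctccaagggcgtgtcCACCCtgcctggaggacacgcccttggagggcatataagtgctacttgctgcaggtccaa
Hbb-bt: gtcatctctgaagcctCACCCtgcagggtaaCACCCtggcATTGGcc
Alas2: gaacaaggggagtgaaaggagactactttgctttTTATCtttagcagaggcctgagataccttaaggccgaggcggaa

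In the whole 120 bases before the RefSeq start, all 4 globins held at least 1 CACCC and at least 1 CCAAT, a pair found in 6.23% of 32851 mouse promoters of that length. CACCC alone was in 31.7% of promoters, CCAAT in 21.3% and GATAA in 10.5%. Alas2 held 1 GATAA and, past the printed stretch, 3 CACCC end to end on the minus strand. No match overlapped another. Such matches describe the letters and show no binding.

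Hba-a2 was at 102511 in PLK2null-732, 42173 in PLK2null-733, 30475 in PLK2null-743 and 6335 in PLK2null-7763, and Hba-a1 was at 50669, 18432.5, 13830 and 3144. In the other 24 Plk2-/-; p53-/- tumors, Hba-a2 ran from 56.9 through a median of 630 to 2116 and Hba-a1 from 65.0 through 309 to 1293. In the p53-/- tumors, Hba-a2 ran from 1257 through 4492 to 16957 and Hba-a1 from 415 through 1307 to 5476. The first 3 named tumors thus lay above every other tumor, whereas PLK2null-7763 lay above the other Plk2-/-; p53-/- tumors and inside the p53-/- range.

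The beta globins gave the same order. Hbb-bs was at 179569, 70139, 45085 and 10881 in PLK2null-732, PLK2null-733, PLK2null-743 and PLK2null-7763, and Hbb-bt was at 15381, 6847, 4573 and 979. Hbb-bs ran from 184 through a median of 1169 to 3515 in the other Plk2-/-; p53-/- tumors and from 1216 through 4602 to 19561 in the p53-/- tumors. Hbb-bt ran from 1.04 through 59.3 to 248 and from 150 through 601 to 2476 in the same groups.

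Summed over the 4 genes, globin was at 348130 in PLK2null-732, 137592 in PLK2null-733, 93962 in PLK2null-743 and 21339 in PLK2null-7763. These sums were 165, 65.3, 44.6 and 10.1 times the median of 2106 of the other Plk2-/-; p53-/- tumors. PLK2null-7763 ranked 5 of 41, since p53null-10151, at 44471, came before it. Just outside the 4 named, the highest other Plk2-/-; p53-/- tumor, PLK2null-1981, was at 7014. Per kilobase of the longest transcript, Hbb-bs was the gene of rank 1 of 45213 in PLK2null-732, 5 in PLK2null-733, 9 in PLK2null-743 and 54 in PLK2null-7763. In bulk RNA, more red cells and more RNA per red cell cannot be told apart.

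**Figure D1:**
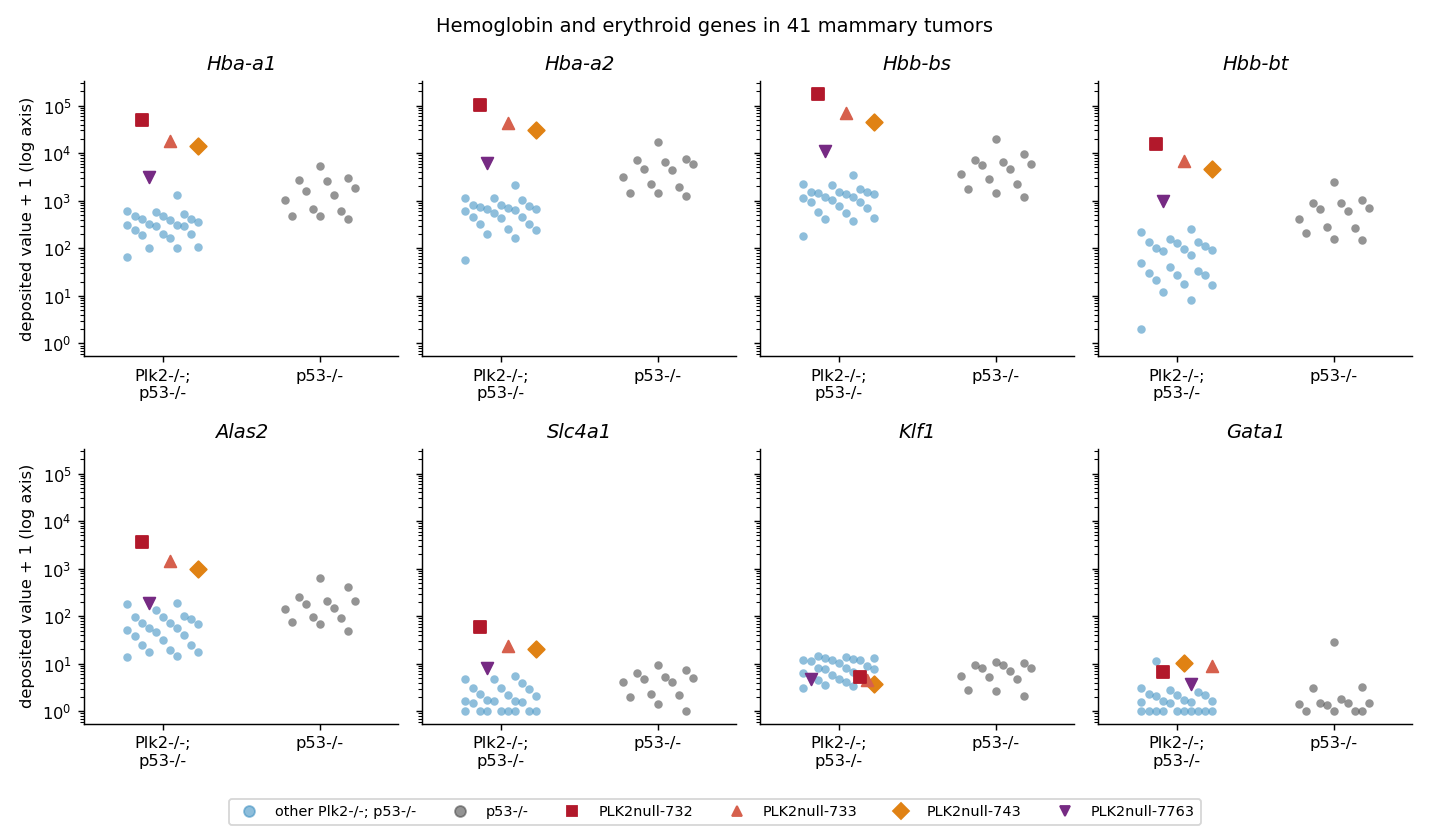
Deposited value + 1 on a log axis for the 8 members, with 1 point per tumor, in 28 Plk2-/-; p53-/- and 13 p53-/- tumors; symbols mark the 4 named tumors. All except PLK2null-7763 of these top all 4 globins and Alas2 and Slc4a1, whereas Klf1 in all 4 named tumors lies below the median of 7.25 of the other Plk2-/-; p53-/- tumors.

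Alas2 (chromosome X, 150547375 to 150570638, plus strand) makes the first and rate-limiting step of heme synthesis in red-cell precursors. It was at 3661, 1461, 989 and 189 in PLK2null-732, PLK2null-733, PLK2null-743 and PLK2null-7763. It ran from 13.2 through a median of 51.9 to 184 in the other Plk2-/-; p53-/- tumors and from 48.2 through 150 to 628 in the p53-/- tumors. The first 3 tumors again lay above all others, and PLK2null-7763 ranked 9 of 41. Per 1000 units of summed globin, Alas2 was at 10.5, 10.6 and 10.5 in the first 3, while globin itself went from 348130 to 93962, and at 8.85 in PLK2null-7763.

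In the p53-/- tumors this proportion ran from 9.53 through a median of 13.8 to 30.9, and in the other Plk2-/-; p53-/- tumors from 12.2 through 19.5 to 600. Alas2 was out of step with globin in PLK2null-1986, PLK2null-7750, PLK2null-1985 and PLK2null-1984, where it was at 600, 133, 55.8 and 55.5 per 1000 units of globin. In PLK2null-1986 Alas2 stood at 184 although summed globin, at 307, was the lowest of the 41 tumors. The 4 tumors were chosen here after their values were seen. Apex2, a DNA repair nuclease gene on the opposite strand whose exons share 311 of the 2403 exonic bases of Alas2, was at 591, 477, 582 and 519 in them, inside its range of 307 to 924 over the other Plk2-/-; p53-/- tumors. The sources used here do not say that strand was used in counting, so reads of the shared bases cannot be assigned to either gene.

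Slc4a1 (chromosome 11, 102348824 to 102366203, minus strand), the band 3 protein of the red-cell membrane, was at 57.3, 22.2, 19.8 and 7.13, which is 80, 37, 35 and 13 reads. It reached the floor in 7 of the other 24 Plk2-/-; p53-/- tumors, with a highest value of 4.52, and in 10 of the 13 p53-/- tumors, with a highest value of 8.53 in p53null-5317. The first 3 exceeded every other tumor and PLK2null-7763 did not. Per 1000 units of globin it was at 0.165, 0.161, 0.210 and 0.334 in the named tumors, inside the p53-/- range of 0 to 0.410.

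Of the transcription factors, Klf1 did not follow globin. Klf1 (chromosome 8, 84901928 to 84905291, plus strand), which activates the adult beta globin genes, was at 4.30, 3.60, 2.82 and 3.84 in the named tumors, or 6, 6, 5 and 7 reads. Its median was 7.25 in the other Plk2-/-; p53-/- tumors, with a highest value of 13.7 in PLK2null-1986, the tumor with the least globin, and 6.06 in the p53-/- tumors. Per 1000 units of globin Klf1 was at 0.0123 in PLK2null-732, the lowest of the 41 tumors, and at 44.6 in PLK2null-1986, the highest. These extremes follow mostly from globin itself, at 348130 and 307 in these tumors, the highest and lowest sums. Klf1 ran only from 1.06 to 13.7 over the 41 tumors, so the proportion is no separate result.

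Gata1 (chromosome X, 7959260 to 7978071, minus strand), the master regulator of red-cell, megakaryocyte and mast cell genes, was at 5.73, 7.79, 9.60 and 2.74, or 8, 13, 17 and 5 reads. Against a median of 0.569 in the other Plk2-/-; p53-/- tumors, these values ranked 5, 4, 3 and 6 of 41. All 4 reached the floor, as did 3 of the other 24 Plk2-/-; p53-/- tumors and 3 of the 13 p53-/- tumors. The order among the first 3 was the reverse of their globin order. The highest Gata1 of all, 27.5, belonged to p53null-2331L, whose summed globin gave Gata1 at 7.01 per 1000 units. Mast cell protease genes were highest in that tumor too, with Cpa3 at 548, Tpsb2 at 596 and Mcpt4 at 773. In the named tumors these genes reached 27.96, 60.3 and 52.6 at most, all in PLK2null-7763. The part of mast cells in the Gata1 level was not tested.

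**Figure D2:**
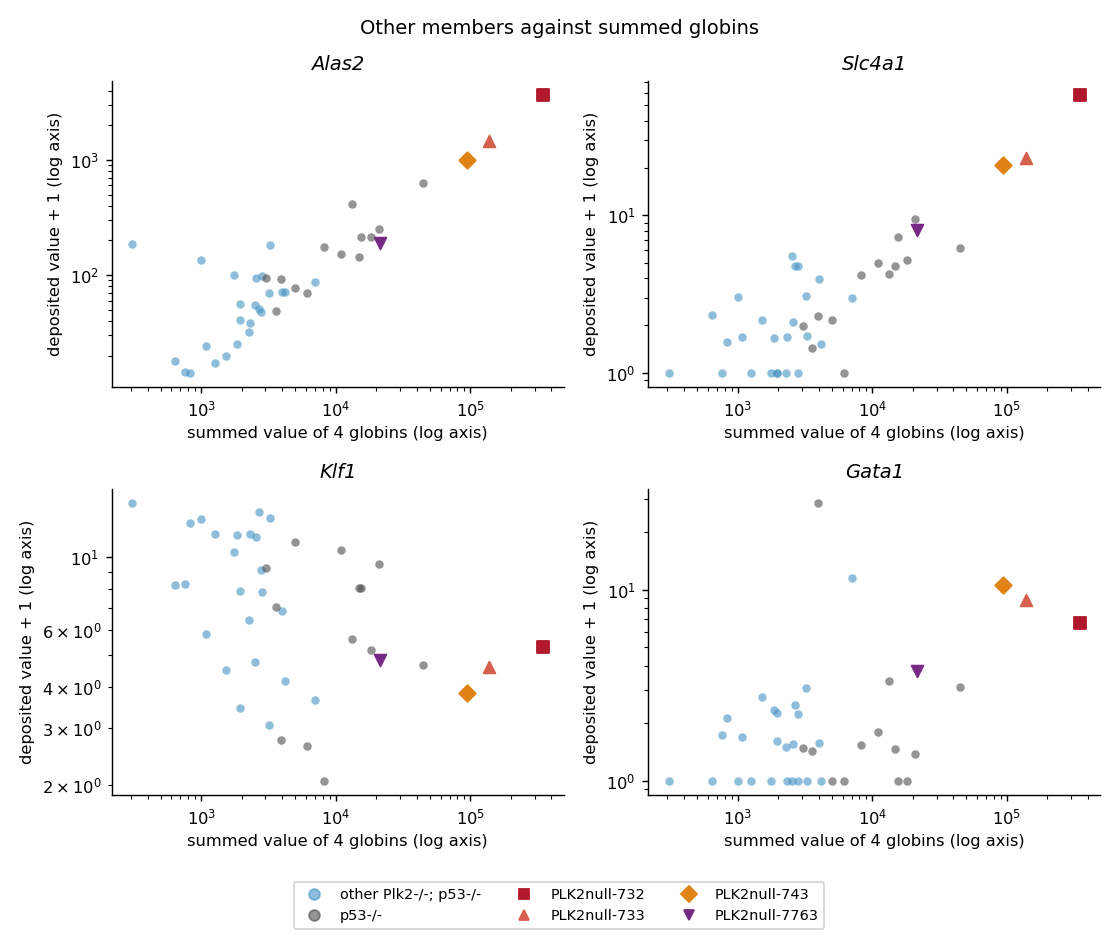
Value + 1 of Alas2, Slc4a1, Klf1 and Gata1 against the summed value of the 4 globins, both axes log, with 1 point per tumor. Alas2 and Slc4a1 climb with globin up to PLK2null-732, with PLK2null-1986 far off at a globin of 307 and Alas2 of 184, while Klf1 does not climb and Gata1 peaks at 27.5 in p53null-2331L.

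Over the 41 tumors, the Pearson correlation of log2(value + 1) with summed globin was 0.855 for Alas2, 0.850 for Slc4a1, 0.480 for Gata1 and -0.401 for Klf1. Over the 37 tumors other than the named, it was 0.714, 0.678, 0.161 and -0.349. These are descriptions without a test, since the points share scaling and library and some tumors may be related. Fragment number went with summed globin at r = 0.316 within the Plk2-/-; p53-/- tumors and -0.172 within the p53-/- tumors.

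Among the other globin genes, the theta globins Hbq1a and Hbq1b, minor genes of the alpha cluster, were at 7.74 and 8.73 in PLK2null-732 and at 1.64 and 0 in PLK2null-7763. The embryonic globins Hba-x, Hbb-y and Hbb-bh1 and the fetal or minor genes Hbb-bh0, Hbb-bh2 and Hbb-bh3 were listed at 0 in all 4. Of the globin relatives of other tissues, myoglobin (Mb) was at 12.2, 2.996, 6.78 and 68.0 and neuroglobin (Ngb) at 12.2, 16.2, 17.5 and 16.996. Cytoglobin (Cygb), a globin of fibroblasts and pericytes, was at 3690, 4464, 5633 and 2191, above all 37 other tumors.

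Genes of the nucleated precursor stages were at or near the floor in the same libraries. The membrane skeleton gene Epb42 had 4, 0, 2 and 1 reads, the ammonium channel subunit Rhag 0, 0, 0 and 2, and the precursor transcription factor Gfi1b 0, 0, 3 and 3. Hemgn, a nuclear protein of precursors, had 4, 6, 0 and 1 reads, and the carbonic anhydrase Car1 had 0, 1, 0 and 1. The transferrin receptor Tfrc, through which precursors take up iron and which dividing cells also use, was at 722, 817, 814 and 2340, against a median of 5233 in the other Plk2-/-; p53-/- tumors. In p53null-10151, the tumor of rank 4 in globin, Klf1 was at 3.68 and Gata1 at 2.10. These precursor genes, members aside, were picked after their values were seen. At so few reads a small number of precursors would not be detectable.

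**Figure D3:**
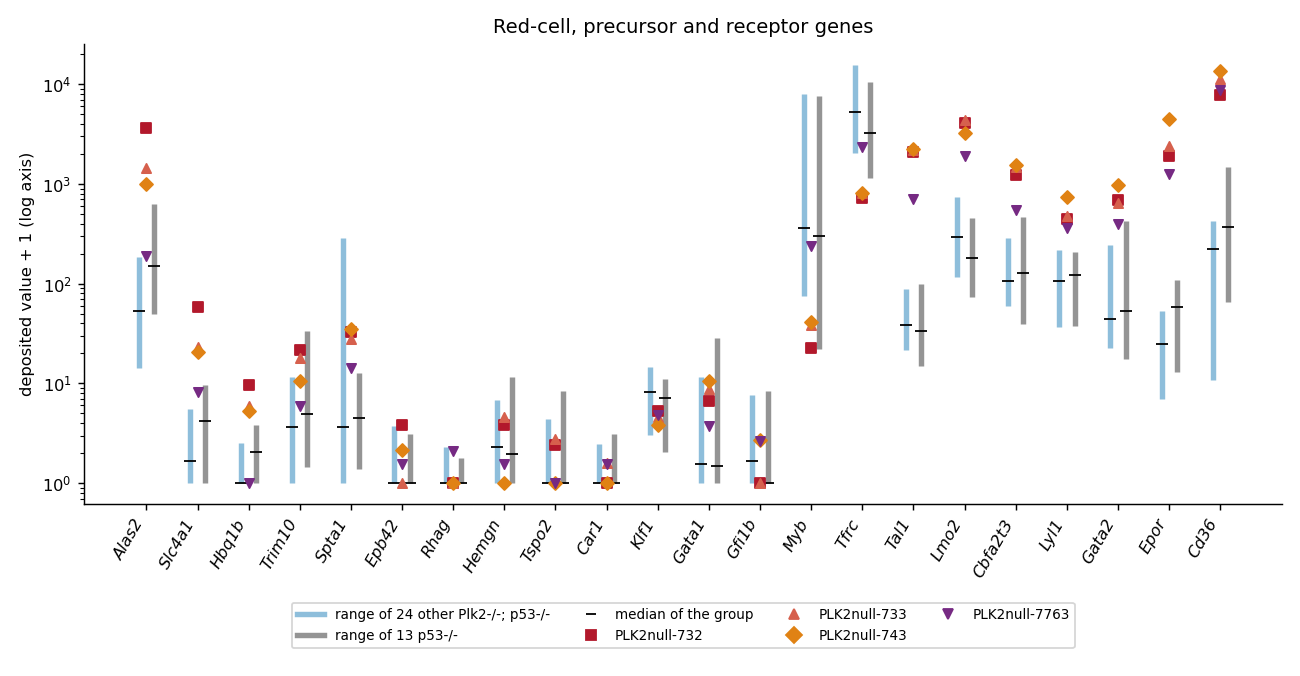
Value + 1 on a log axis for red-cell, precursor and receptor genes; symbols are the 4 named tumors, bars the range and dashes the median of the 24 other Plk2-/-; p53-/- and 13 p53-/- tumors. Alas2 and Slc4a1 reach 3661 and 57.3 in PLK2null-732, Epb42 to Car1 sit near the floor, and Tal1, Lmo2, Epor and Cd36 exceed both ranges in all 4 named tumors.

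Of 17208 genes with a mean of at least 10, 4.29% had all 4 named tumors above the other 37 and 0.610% had all 4 below. Among the 18 genes of red-cell membrane and skeleton, 2 had all 4 above. These were Gypc, which is also made outside red cells, at 1388, 1536, 2208.1 and 985, and Add2, an adducin, at 723, 620, 409 and 163. The water channel Aqp1 was at 848, 537, 1157 and 6218 and the actin-bundling Dmtn at 2124, 2796, 3052 and 994. None of the 14 late red-cell genes measured and none of the 14 heme synthesis and iron import genes had all 4 above. In these lists Bnip3l, which clears mitochondria, was at 6624, 6590, 6328 and 5205, and the antioxidant genes Prdx2 and Gpx1 were at 5496, 5020, 4771 and 3734 and at 4816, 3809, 4312 and 4100. Alad, the enzyme after Alas2, was at 2851, 2565, 2573 and 1101, and the mitochondrial iron importer Slc25a37 was at 2203, 2417, 2198 and 2083.

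Of 16 transcription factors of the red-cell lineage, 4 had all 4 named tumors above the other 37: Tal1, Lmo2, Cbfa2t3 and Lyl1. Tal1 was at 2099, 2212, 2232 and 707 against at most 98.1 elsewhere, and Lmo2 was at 4060, 4347, 3245 and 1904 against at most 732.2. Tal1, Lmo2 and Lyl1 are also expressed in endothelial cells. Among 8 precursor receptors and signals the erythropoietin receptor Epor, at 1923, 2416, 4530 and 1254, and the fatty acid transporter Cd36, at 7875, 11419.5, 13527 and 8765, lay above all others, where Epor reached 107 and Cd36 reached 1481. Kit, the stem cell factor receptor, was at 8455, 9260, 8006 and 4859, inside the range of the rest. Cd24a was at 1797, 2040, 528 and 4875.

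Markers of blood vessel endothelium were high in the named tumors. All 8 of 8 had the 4 named tumors above the other 37, and their summed value was 206017, 194505, 181878 and 84574, against 3279 to 9849 in the other Plk2-/-; p53-/- tumors and 2395 to 19106 in the p53-/- tumors. The junction protein Cdh5 was at 50367.5, 44751.5, 39310.5 and 20398, Pecam1 at 46193, 41641, 34792 and 22792, and the VEGF receptor Kdr at 35693, 42459, 35380 and 13681. Over the other 37 tumors, the correlation of log2(value + 1) with summed globin was -0.0860 for Cdh5, 0.121 for Pecam1 and 0.0417 for Kdr, and over all 8 markers it ran from -0.384 for Flt1 to 0.604 for Esam, as a description without a test. Their part in the globin levels was not tested. From PLK2null-732 to PLK2null-743, summed globin went from 348130 to 93962 and the endothelial sum from 206017 to 181878.

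Genes of heme and iron recycling were mixed, and 1 of 10 had all 4 named tumors above the rest. The summed value of the list was 30453, 28033, 32139 and 14891, below the median of 109705 of the other Plk2-/-; p53-/- tumors. That median lay close to the one of transferrin (Trf) alone, the iron carrier of plasma. Trf was at 2014, 2264, 2564 and 3073 against a median of 105404. Haptoglobin (Hp), which binds free hemoglobin, was at 110, 82.1, 229 and 740 against a median of 3279. These genes were named after their values were seen. The gene above the rest was Spic, a transcription factor of red pulp macrophages, at 790, 951, 1229 and 280 against a median of 11.6. Heme oxygenase 1 (Hmox1) was at 15402, 12077, 13084 and 4436, the iron exporter ferroportin (Slc40a1) at 6092, 6449, 6051 and 2724, and Vcam1, an adhesion molecule also of vessels, at 5106, 5302, 7413 and 2705. The highest Hmox1, 23308, was in p53null-10155. No test was made of what part these cells had in the globin levels.

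Markers of other blood cells did not share one pattern. Among 11 platelet and megakaryocyte genes only the collagen receptor Gp6, at 7, 8, 10 and 3 reads, had all 4 above the rest. Pf4, a platelet chemokine, was at 1035, 527, 1284 and 494, Itgb3 at 3662, 1653, 3535 and 3912, and Vwf, which endothelium also makes, at 112, 57.5, 91.5 and 340. Among 11 neutrophil genes none did, with Csf3r at 536, 361, 589 and 194, S100a9 at 467, 159, 555 and 93.8 and Ltf at 11.5, 2.40, 4.52 and 192. Of 9 mast cell genes none did, and Hdc was at 171, 110, 223 and 86.1. Of 7 eosinophil and basophil genes, Prg2 and Ccr3 did, at 349, 239, 117 and 157 and at 408, 497, 685 and 207. Epx, the defining peroxidase of eosinophils, was at or under 1 read in all 4, and the basophil protease Mcpt8 was at 5.01, 4.19, 3.95 and 6.58. Liver plasma protein genes stood out in PLK2null-733 alone of the named, with Alb at 923, Serpina1a at 76.7 and Ttr at 65.9, against an Alb of 2.82 or less in the other 3. Elsewhere Alb reached 351 in p53null-2396R.

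The ratio between the copies of a globin pair differed among tumors. Hbb-bt per Hbb-bs was 0.0857, 0.0976, 0.101 and 0.0900 in the named tumors, and 0.0980 to 0.147 in the p53-/- tumors. In 12 of the Plk2-/-; p53-/- tumors it was 0.00567 to 0.0398, and in the other 29 tumors of the series 0.0616 to 0.147, with no tumor between. For all 12, the most alike tumor over 17208 genes was another of the 12, at r = 0.966 to 0.986, so the 12 tumors may not be 12 separate cases. The 4 tumors with much Alas2 per globin are among the 12, and each had the other 3 as its nearest neighbours.

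Hba-a1 per Hba-a2 was 0.494, 0.437, 0.454 and 0.496 in the named tumors. It was 0.288 to 0.411 in the p53-/- tumors and 0.416 to 1.14 in all Plk2-/-; p53-/- tumors, so that the 2 ranges met without overlap. Alpha globin per beta globin was 0.786, 0.787, 0.892 and 0.799 in the named tumors, 0.618 to 0.951 in the other Plk2-/-; p53-/- tumors and 0.854 to 1.46 in the p53-/- tumors. These ratios were looked at after the values were known and were not tested. Shared sequence makes the split between copies an estimate, and library series cannot be told apart from genotype.

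**Figure D4:**
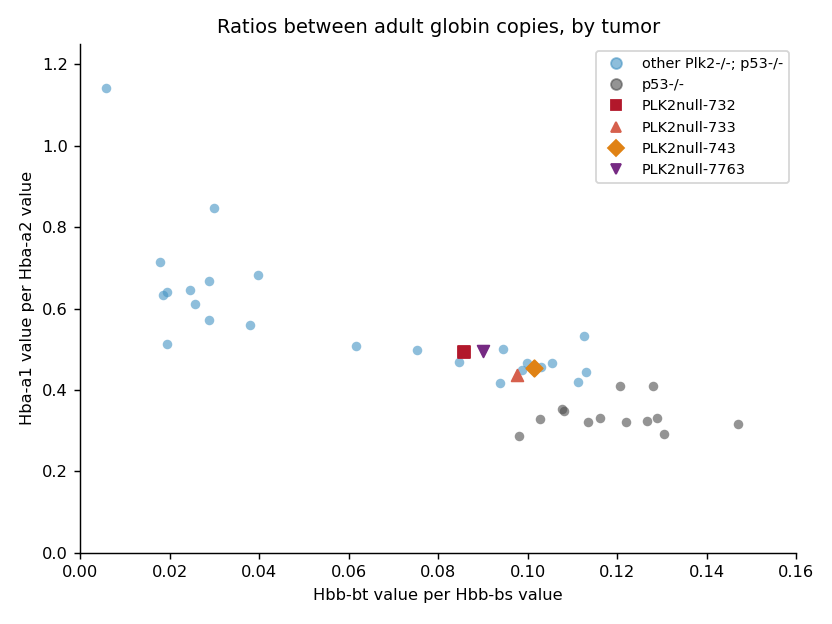
Hba-a1 value per Hba-a2 value against Hbb-bt value per Hbb-bs value, with 1 point per tumor. The 12 tumors at the left have an Hbb-bt per Hbb-bs of 0.0398 or less, the named tumors lie with the main group at 0.0857 to 0.101, and the p53-/- tumors lie lowest on the vertical axis, at 0.288 to 0.411.

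To compare the genotypes, limma was run over all 41 tumors on values as log2(value + 1), and p-values were adjusted by the Benjamini-Hochberg method over 17208 genes. Of the 5 members with a mean of at least 10, 2 were called, both lower in the Plk2-/-; p53-/- tumors, where 15.3% of all genes tested were lower and 39.5% were called in either direction. Hba-a2 was lower by a log2 difference of -2.04 (SE 0.69, limma adjusted p = 0.0160) and Hbb-bt by -2.39 (SE 0.81, limma adjusted p = 0.0168). Hba-a1 differed by -1.33 (limma adjusted p = 0.105), Hbb-bs by -1.24 (limma adjusted p = 0.130) and Alas2 by -1.03 (limma adjusted p = 0.150), and these 3 did not pass. Each called gene is thus a single copy of its pair, and the other copy did not pass. Because the split of reads between copies is an estimate, such calls cannot be told apart from differences in that split. Summed globin was not fitted, and library series cannot be told apart from genotype. The median difference of all genes was 0.0965. Summed globin had a median of 2410 over the 28 Plk2-/-; p53-/- tumors and 11001 over the 13 p53-/- tumors, whereas its mean was higher in the former, 23412 ± 70510 (SD, n = 28) against 12921 ± 11170 (SD, n = 13). The p-values treat the 28 tumors as separate cases, although some were close in expression and may be related.

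The named tumors moved these differences. Without PLK2null-732 alone, the log2 difference was -1.58 for Hba-a1, -1.49 for Hbb-bs and -1.23 for Alas2. Without all 4 named tumors the log2 differences were -2.13 for Hba-a1, -2.88 for Hba-a2, -2.04 for Hbb-bs, -3.33 for Hbb-bt and -1.65 for Alas2. As these tumors were set aside for their high globin, from 1 genotype only, the p-values of both fits are no test of genotype. Of the 17041 genes in the fit without all 4, 41.9% were called, 24.9% of the genes being higher and 2890 genes lower. The 3 members under the mean of 10 were fitted with all genes that had any value above 0. Slc4a1 then differed by -0.42 (limma adjusted p = 0.550), Klf1 by 0.31 (limma adjusted p = 0.393) and Gata1 by 0.09 (limma adjusted p = 0.881), where 26.9% of 33691 genes were called, 17.6% higher and 9.29% lower.

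**Figure D5:**
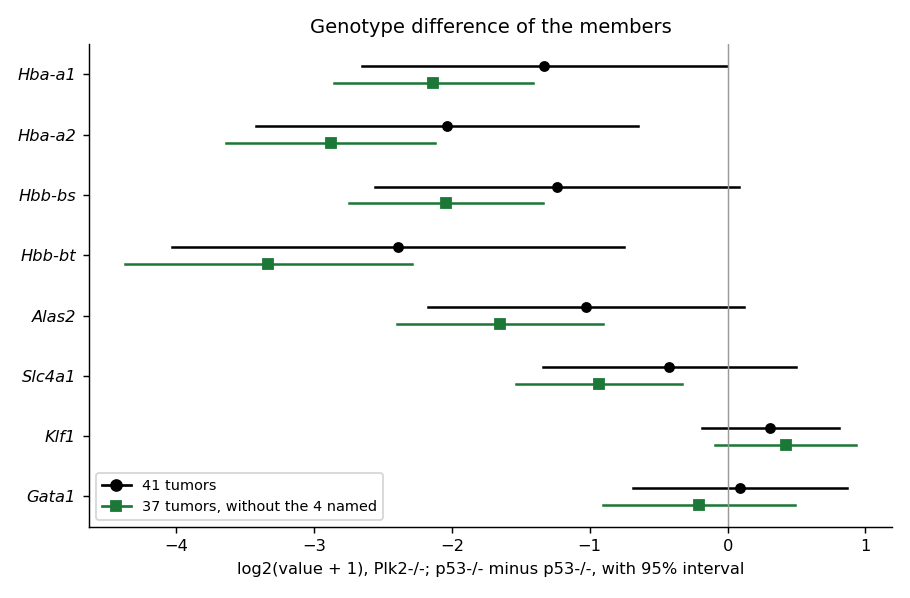
Difference in log2(value + 1), Plk2-/-; p53-/- minus p53-/-, with 95% interval, for each member over 41 tumors (circles) and over 37 tumors without the 4 named (squares). Each globin moves further below 0 without the named tumors, from -1.24 to -2.04 for Hbb-bs, while Klf1 and Gata1 span 0 in both.

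The list counts are read beside the shares of all genes called, 24.3% higher and 15.3% lower. Among the heme synthesis and iron import genes, Alas2 included, 3 of the 14 tested were higher and 5 lower in the Plk2-/-; p53-/- tumors. Alad was lower by -1.41 (SE 0.28, limma adjusted p = 8.63e-05) and Slc25a37 higher by 1.57 (SE 0.19, limma adjusted p = 1.06e-08). Of 13 red-cell transcription factors tested, Zfpm1, Ldb1 and Lmo2 were higher, by 0.87, 0.47 and 1.15 (limma adjusted p = 0.0142, 0.00203 and 0.0163), and none was lower. That share of the list is near the share of all genes called higher. Zfpm1 encodes the Gata1 partner FOG1, and Ldb1 and Lmo2 bridge Gata1 and Tal1 complexes. Of 11 membrane and skeleton genes tested, Aqp1 was lower and none higher, and of 10 late red-cell genes Trim58 was higher and Prdx2 and Gpx1 were lower, Trim58 being named after its value was seen. Of the 7 precursor receptors and signals tested, 0 passed in limma after adjustment and 0 had an unadjusted p under 0.05, with a list median of -0.05. Of the 8 endothelial markers 1 was higher and none lower, and of the 6 mast cell genes tested none was higher and 1 lower. Of the 7 neutrophil genes tested 4 were higher and none lower, with a list median of 1.33. Of the 6 platelet and megakaryocyte genes tested 2 were higher and none lower. Of the 3 eosinophil and basophil genes tested 1 was higher and none lower. No list was tested as a set.

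Likeness to summed globin outside the members was ranked among genes with a mean of at least 10, leaving out predicted genes (Gm and Rik names). By Pearson correlation of log2(value + 1) over 41 tumors, the most alike were Mcam, Tusc5, Kif26a, Gja4 and Cxx1b, at 0.860, 0.852, 0.844, 0.839 and 0.839. Mcam, an adhesion molecule of vessel walls, was at 37451, 30949, 28287 and 15285 in the named tumors, and Gja4, a connexin of arterial endothelium, at 2081, 2553, 2100 and 1274. Over the 37 other tumors these 5 correlations were 0.692, 0.695, 0.723, 0.668 and 0.714. They are descriptions over tumors that share scaling, with no test.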

How the data were processed

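Libraries were made from mRNA of 41 tumors and sequenced as paired reads of 50 bases. The submitters' processing notes name mm10, STAR 2.7.6a, Picard 2.22.4, SAMtools and Salmon 1.4.0. The authors deposited a linear signal, Salmon estimated counts divided by each tumor's upper quartile. Columns were matched to tumors by name, and the genotype came from the labels. Low values lie on steps of 1 read, but only 77.8 to 80.5% of a tumor's nonzero values were within 0.1 read of whole, so reads were not recovered and no count model was used. Genes with a mean of at least 10 were tested with limma 3.58.1 in R 4.3.3 on log2(value + 1), without trend, 28 against 13 tumors, Benjamini-Hochberg threshold 0.05. This scale understates changes of low genes, and p-values measure spread between tumors. The fit was tested on simulated normal values drawn independently for each tumor, which cannot show how it behaves when tumors are related. Other steps used Python 3.11.15, numpy 2.4.6, pandas 2.3.3, scipy 1.17.1 and matplotlib 3.10.9. Positions, transcripts and lengths are the GENCODE annotation of GRCm38. The members, the 15 gene lists and the named tumors were chosen with earlier results of these data known. Named genes were the members, other globins above the floor, the 3 highest genes of each list in any named tumor and called transcription factors. The 5 genes most alike to globin were also named, among genes with a mean of at least 10 and without predicted genes. Others were named after their values were seen, as were the copy ratios. Results that need certain withheld items are not reported here.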

Additional observations from a re-analysis of the deposited data

How the results depend on the processing

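Direction and call of the 5 tested members were the same in all 35 results, each member under each other pseudocount (10 or 0.1), filter, trend or scaling. The number of genes called, 6802 of 17208 tested, was lowest under these settings at 5198 of 12880 with a mean of at least 100. It was highest, 9053 of 33691, with any value above 0, and was 7137 of 17041 without the 4 named tumors. Scaling moved its split: 61.4% of calls were higher in the Plk2-/-; p53-/- tumors, 50.7% after quantile normalization and 46.5% after TMM (trimmed mean of M values) rescaling, where the median difference of all genes was -0.0049 and -0.045, against 0.0965 as deposited. Leaving out each tumor in turn gave 6346 to 7074 calls, and log2 differences of -1.58 to -1.15 for Hba-a1, -2.29 to -1.86 for Hba-a2, -1.49 to -1.05 for Hbb-bs, -2.66 to -2.19 for Hbb-bt and -1.23 to -0.86 for Alas2. Hba-a1 passed without PLK2null-732, PLK2null-733 or PLK2null-743, and Hbb-bs and Alas2 without PLK2null-732, which are no tests, as these tumors were named for high globin. Without all 4 named tumors, the values were -2.13 for Hba-a1, -2.04 for Hbb-bs and -1.65 for Alas2. These were then under the threshold, in a fit where 2890 of 17041 genes were called lower. Slc4a1 was at -0.93 and under the threshold in a separate fit over any value above 0, chosen after seeing the data. The share of all genes called in that separate fit was not counted. Both fits are no test, as those tumors were set aside for their globin. Over any value above 0, Gata1 turned from 0.09 with all tumors to -0.21 without the 4 named and passed in neither. The correlation with globin fell to 0.714 for Alas2 and 0.692 for Mcam without the 4 named, and as Spearman rho was 0.769 and 0.770. Alas2 per 1000 units had a median of 16.6 over all globin, 39.4 over alpha and 30.0 over beta globin. No paired analysis was made, as the tumor numbers differ between the genotypes and the labels match no tumors across them. The paper matched some lines across genotypes by subtype for its treatment study, and that matching was not used here.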
